A study of Rattus norvegicus with 23 samples.

Results

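The miRNAs described here are those of the miR-192 and miR-194 cluster in PC12 cells, a rat adrenal tumour (pheochromocytoma) line with neuroendocrine features. They were chosen by name: every entry called rno-miR-192 or rno-miR-194, on either arm, in the sRNAbench read-count table. This gave 4 of 413 named entries, rno-miR-192-5p, rno-miR-192-3p, rno-miR-194-5p and rno-miR-194-3p, and the 2 on the 5p arms passed the low-count filter that left 269 entries for testing. The α1ACT line stably expressed α1ACT, a transcription factor that is a second product of the calcium channel gene CACNA1A, with a 3xFlag tag at its C-terminus and 11 glutamine repeats, from a pcDNA3 vector. The vector line stably carried the empty pcDNA3 vector, and both lines had been selected with G418. Cells were taken 6 h, 24 h, 3 d and 10 d after a split, with 3 libraries per group except the vector line at 6 h, which had 2, so 12 α1ACT libraries stood against 11 vector libraries. How many stable clones make up a line is not stated in the labels, so a difference between the lines and one between clones cannot be told apart. Nor is it stated whether replicates are separate cultures, so p-values reflect the spread of these libraries, which may be technical. The level of α1ACT was not measured by this assay.

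Mature miRNAs are cut from hairpins in longer transcripts, and each hairpin can give a 5p and a 3p strand. One strand is usually kept in the Argonaute complex and pairs with messenger RNAs through its seed, bases 2 to 8, to lower their translation and stability. The miR-192 and miR-194 hairpins lie side by side and are known as miRNAs of gut, liver and kidney epithelium, where HNF1 factors drive their transcription, and as targets of p53. A related pair of hairpins, miR-194 and miR-215, lies on another chromosome, and miR-215 is the close relative of miR-192.

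The mature sequences below show why counts of this group can or cannot be separated. They are from RefSeq, assembly GRCr8, 5′ to 3′, with the seed (bases 2 to 8) in capitals.

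miR-192-5p: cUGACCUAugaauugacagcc

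miR-215: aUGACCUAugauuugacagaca

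miR-194-5p: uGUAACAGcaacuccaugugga

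miR-192-3p: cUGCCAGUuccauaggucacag

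miR-194-3p: cCAGUGGGgcugcuguuaucu

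The seed of miR-192-5p is shared with 1 other rat miRNA among 693 mature names, miR-215, and that of miR-194-5p with none. Over 21 compared positions, counted from 1 at the 5′ end, miR-192-5p and miR-215 were alike at 18 and differed by C1A, A12U and C20A (miR-192-5p base first), and miR-215 had 1 extra base at the 3′ end. These differences lie outside the seed. By contrast 2 hairpins, Mir194-2 and Mir194-1, give the same miR-194-5p, so its reads cannot be assigned to either hairpin. In GRCr8, Mir194-2 (chr1:212994024-212994108) and Mir192 (chr1:212994209-212994318) lie on the plus strand with 100 bases between them and within 10 kb of Atg2a. Mir194-1 (chr13:99382716-99382798) and Mir215 (chr13:99382990-99383086), also on the plus strand, are 191 bases apart and overlap the gene Iars2, strand not considered. The hairpins of the first pair are printed next, with the mature strands in capitals, to show how the arms sit beside each other.

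Mir194-2: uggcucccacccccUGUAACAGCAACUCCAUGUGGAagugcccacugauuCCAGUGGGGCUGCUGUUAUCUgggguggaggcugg

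Mir192: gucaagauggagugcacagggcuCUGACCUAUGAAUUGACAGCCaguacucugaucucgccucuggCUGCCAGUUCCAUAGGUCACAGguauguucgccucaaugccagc

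Values are read counts per entry, scaled to CPM (a share of the library total, corrected with trimmed-mean-of-M-values factors). Library totals ran from 448557 (vector, 3 d, replicate 1) to 5070120, with a median of 2335856. A second count table, made with Chimira, covered the same 23 libraries. For 21 of 23 libraries its counts matched the library of the same name, while 2 vector libraries, replicate 2 of 6 h and replicate 2 of 10 d, each matched the other one. Which table names this pair correctly is not known, and the sRNAbench names are used below. Over the other 21 libraries the Chimira count was 1.01 to 1.03 times the sRNAbench count for miR-192-5p and 1.02 to 1.07 times for miR-194-5p.

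Both 5p strands were present in every library, and miR-192-5p was the more abundant. In the sRNAbench table rno-miR-192-5p averaged 4196 CPM over the 23 libraries, rank 33 of the 269 tested entries, while rno-miR-194-5p averaged 207 CPM, rank 104. The lowest count was 1339 for miR-192-5p and 100 for miR-194-5p, both in the shallow vector 3 d library. Both were thus measured far above their counting limit in all 8 groups.

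At 6 h miR-192-5p stood at 4201, 4205 and 4559 CPM in the α1ACT line, against 3772 and 3859 CPM in the vector line. At 24 h it stood at 4462, 4641 and 4455 CPM in the α1ACT line, against 4138, 4623 and 4267 CPM in the vector line. All α1ACT libraries lay above all vector libraries at 6 h, and the groups overlapped at 24 h. At 3 d its values were 3229, 3423 and 3597 CPM in the α1ACT line, against 3002, 3154 and 2716 CPM in the vector line. At 10 d they were 5616, 5287 and 5290.4 CPM in the α1ACT line, against 4941, 4327 and 4747 CPM in the vector line. The α1ACT libraries again lay above all vector libraries at both times. Of all tested entries, the lines did not overlap, in either direction, for 27.9% at 6 h, 13.8% at 3 d and 24.9% at 10 d. Within each line the 3 d libraries of miR-192-5p were the lowest and the 10 d libraries the highest on average.

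For miR-194-5p the 6 h values were 178, 218 and 198 CPM in the α1ACT line, against 190.5 and 179 CPM in the vector line. At 24 h they were 196, 221 and 237 CPM in the α1ACT line, against 186, 179.8 and 219 CPM in the vector line. The lines overlapped at both times. At 3 d the values were 239.7, 185 and 193.8 CPM in the α1ACT line, against 224, 178 and 185 CPM in the vector line. At 10 d they were 248, 228 and 273 CPM in the α1ACT line, against 197, 198 and 217 CPM in the vector line. The lines overlapped at 3 d, and at 10 d every α1ACT library lay above every vector library. At 10 d the lines did not overlap, in either direction, for 24.9% of all tested entries.

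**Figure D1:**
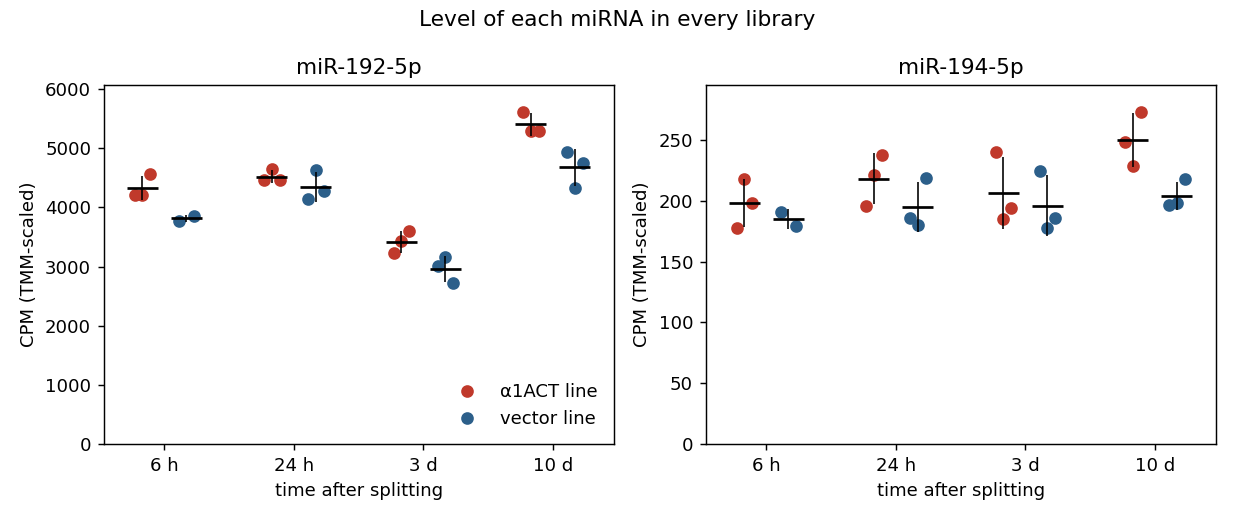
Level of miR-192-5p (left) and miR-194-5p (right) in CPM (y axis) by time after splitting (x axis), with 1 point per library, α1ACT in red and vector in blue; bars are the group mean and SD. miR-192-5p is lowest at 3 d and highest at 10 d in both lines, while the miR-194-5p groups lie close together.

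Ordered by group mean, miR-192-5p was highest in the α1ACT line at 10 d (5398 ± 189 CPM, SD, n = 3) and lowest in the vector line at 3 d (2957 ± 222 CPM, n = 3). Between them stood vector at 10 d (4672 ± 314), α1ACT at 24 h (4519 ± 105), vector at 24 h (4342 ± 251), α1ACT at 6 h (4322 ± 206), vector at 6 h (3816 ± 61.4, n = 2) and α1ACT at 3 d (3417 ± 184). The groups from vector at 10 d down to α1ACT at 6 h each overlapped their neighbour in this order, and the other neighbours did not overlap. The order was taken from these same means, and how often neighbours separate among all tested entries was not computed. For miR-194-5p the order ran from α1ACT at 10 d (249.9 ± 22.4 CPM, SD, n = 3) to vector at 6 h (185 ± 7.88 CPM, n = 2), and every neighbour overlapped the next.

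Which miRNAs α1ACT regulates was the question of the series, asked by comparing the lines. Averaged over the 4 times, miR-192-5p was higher in the α1ACT line by a log2 fold change of 0.16 (SE 0.0461, a fold of 1.12), which passed edgeR's quasi-likelihood test (Benjamini-Hochberg adjusted p = 0.0196). In this comparison 12.6% of the 269 entries were called, 6.69% as higher and 5.95% as lower in the α1ACT line, and the median log2 fold change of all entries was 0.000886. For miR-194-5p the log2 fold change was also 0.16 (SE 0.0662, a fold of 1.12) and did not pass (edgeR quasi-likelihood, Benjamini-Hochberg adjusted p = 0.11). The estimates of the 2 members were of like size, and the miR-194-5p interval, 0.03 to 0.30, was the wider one. One of 2 tested members was thus called. That call depends in part on how the pair of vector libraries is named. It was lost with the pair exchanged in the sRNAbench table (edgeR quasi-likelihood, Benjamini-Hochberg adjusted p = 0.0851, log2 fold change 0.15) and in the Chimira table as named (adjusted p = 0.0905), and held in the Chimira table with the pair exchanged (adjusted p = 0.0211). It was also lost with no low-count filter, without either vector 6 h library or without α1ACT 6 h replicate 3.

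At single times neither member was called (edgeR quasi-likelihood, smallest Benjamini-Hochberg adjusted p = 0.27, for both at 10 d). The log2 fold change of miR-192-5p was 0.18 at 6 h and 0.06 at 24 h, and 0.21 both at 3 d and at 10 d. At 6 h it was 0.056 in the Chimira table as named, 0.094 with the pair exchanged in the sRNAbench table and 0.37 under upper-quartile factors, and at 24 h it was 0.031 without vector 24 h replicate 1 and 0.14 without replicate 2. That of miR-194-5p was largest at 10 d (0.29), with 0.16 at 24 h and 0.097 and 0.098 at 6 h and 3 d. Of all tested entries, 0% were called at 6 h, 0.372% both at 24 h and at 3 d, and 1.49% at 10 d. The CPM of the lines did not overlap for 27.9% of all entries at 6 h and 17.1% at 24 h. For 3 d and 10 d these shares were 13.8% and 24.9%. The separation seen for miR-192-5p at 6 h, 3 d and 10 d, and for miR-194-5p at 10 d, was thus shared by a sizeable part of the table. These shares are of the sRNAbench table, and none was computed for the Chimira table. In the Chimira table as named, the lines separated for miR-192-5p at 10 d but overlapped at 6 h and 3 d. With the pair exchanged they overlapped at 6 h in the sRNAbench table and separated there in the Chimira table. All 8 estimates were positive in the sRNAbench table, where 37.5% of all tested entries had the same sign at all 4 times. In the Chimira table as named, miR-194-5p at 6 h was at -0.0035.

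**Figure D2:**
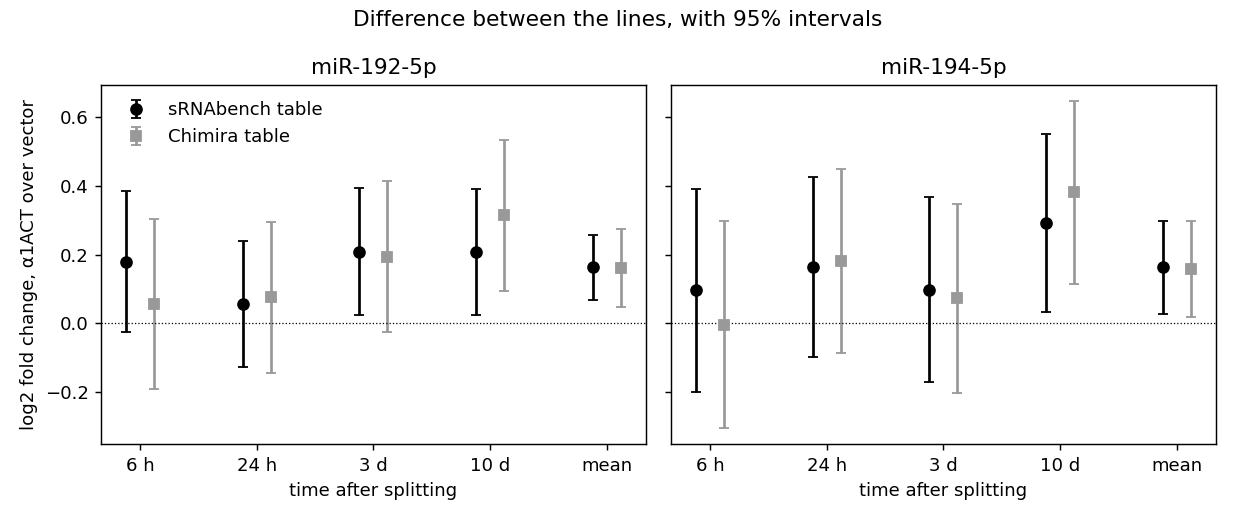
Log2 fold change of α1ACT over vector (y axis) by time and for the mean of all times (x axis) for miR-192-5p (left) and miR-194-5p (right), in the sRNAbench (black) and Chimira (grey) tables; bars are 95% intervals. The 2 mean estimates lie at 0.16 in the sRNAbench table, and the tables differ most at 6 h and 10 d, the times of the pair of vector libraries whose names differ.

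**Figure D3:**
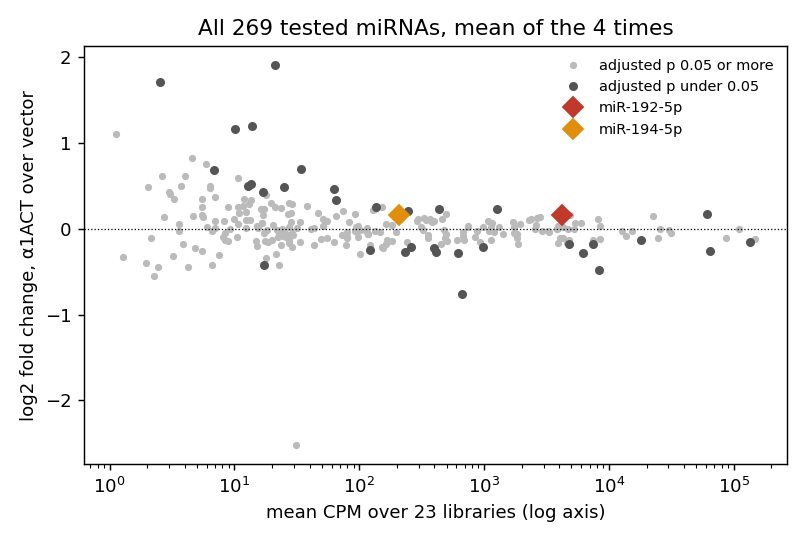
Log2 fold change of α1ACT over vector as the mean of the 4 times (y axis) against mean CPM (x axis, log scale) for the 269 tested miRNAs, with miR-192-5p and miR-194-5p as diamonds. Entries called by edgeR are dark, and both members lie at 0.16, inside the band of small changes.

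No change of the line difference with time was detected for either member (edgeR quasi-likelihood F test of the interaction, Benjamini-Hochberg adjusted p = 1 for both). By that test 0% of all entries were called, while 10 had an unadjusted p under 0.05, and DESeq2 called 2 and limma-voom 0.

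The level of miR-192-5p changed with time after splitting in both lines. Its time course passed edgeR's quasi-likelihood F test in the α1ACT line (Benjamini-Hochberg adjusted p = 1.34e-05) and in the vector line (adjusted p = 1.23e-05), where 42% and 36.8% of all entries were called. At 3 d against 24 h it was lower, with a log2 fold change of -0.40 in the α1ACT line (SE 0.0894, edgeR Benjamini-Hochberg adjusted p = 0.00139; 22.3% of entries called) and of -0.55 in the vector line (SE 0.0898, adjusted p = 0.000101; 23.8% called). At 10 d against 3 d it was higher by 0.66 on the log2 scale in the α1ACT line (SE 0.0896, edgeR Benjamini-Hochberg adjusted p = 2.66e-06; 32.7% called), a fold of 1.58. In the vector line the value was also 0.66 (SE 0.0899, edgeR Benjamini-Hochberg adjusted p = 2.81e-06; 25.3% called). By p it ranked 5 of 269 in each of these 10 d against 3 d comparisons. These steps between neighbouring times were added after the values had been seen, and the F test over the 4 times does not depend on that choice. At 24 h against 6 h miR-192-5p was not called, with log2 fold changes of 0.06 in the α1ACT line and 0.19 in the vector line (edgeR Benjamini-Hochberg adjusted p = 0.68 and 0.452; 10.4% and 1.12% of entries called). At 10 d against 6 h it was higher in the α1ACT line (0.32, SE 0.0892, edgeR Benjamini-Hochberg adjusted p = 0.0094; 27.1% called). The vector value was close to it and was not called (0.29, edgeR Benjamini-Hochberg adjusted p = 0.0555; 11.9% called), and in the Chimira table as named it was 0.08.

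The time courses of miR-194-5p did not pass (edgeR quasi-likelihood F test, Benjamini-Hochberg adjusted p = 0.111 in the α1ACT line and 0.847 in the vector line). Its values at 3 d against 24 h were -0.08 in the α1ACT line, with a 95% interval of -0.34 to 0.18, and -0.01 in the vector line, with an interval of -0.28 to 0.26. At 10 d against 6 h in the α1ACT line, where 27.1% of all entries were called, miR-194-5p was narrowly called at 0.34 (SE 0.127, edgeR quasi-likelihood, Benjamini-Hochberg adjusted p = 0.0494). This call was lost when any 1 of 17 of the 23 libraries was left out. It held without α1ACT 6 h replicate 2, 3 d replicate 1 or 10 d replicate 2 and without vector 24 h replicate 3, 3 d replicate 1 or 3 d replicate 2. The vector value was 0.14 (SE 0.143, edgeR Benjamini-Hochberg adjusted p = 0.586).

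The ratio of the pair within a library does not depend on scaling, and it showed where the members parted. In the α1ACT line there were 4.23, 5.17 and 4.35 miR-194-5p reads per 100 miR-192-5p reads at 6 h, 4.38, 4.77 and 5.33 at 24 h, 7.42, 5.41 and 5.39 at 3 d, and 4.42, 4.32 and 5.16 at 10 d. In the vector line there were 5.05 and 4.65 at 6 h, 4.50, 3.89 and 5.12 at 24 h, 7.47, 5.63 and 6.83 at 3 d, and 3.98, 4.57 and 4.58 at 10 d. All 6 libraries of 3 d, at 5.39 to 7.47, lay above all 17 others, the highest of which was at 5.33. Within lines, the log2 ratio was higher by 0.44 at 3 d than at 24 h (0.32 in the α1ACT line and 0.56 in the vector line; exact permutation test within lines, two-sided, p = 0.005, Benjamini-Hochberg adjusted p = 0.0125 over 5 ratio tests). At 10 d it was at -0.49 relative to 3 d (-0.38 and -0.60 in the 2 lines; exact permutation test, two-sided, p = 0.005, adjusted p = 0.0125). Here 0.005 is the smallest p that the 400 permutations can give, and both comparisons were added after the values had been seen. The 3 d libraries include the shallowest one, and without it the log2 differences were 0.39 and -0.44 (exact permutation p = 0.01 and 0.005). No difference in the ratio was detected between the lines, at -0.0098 for α1ACT minus vector (exact permutation test within times, two-sided, p = 0.89), or between 10 d and 6 h, at -0.07 (exact permutation test within lines, two-sided, p = 0.49).

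**Figure D4:**
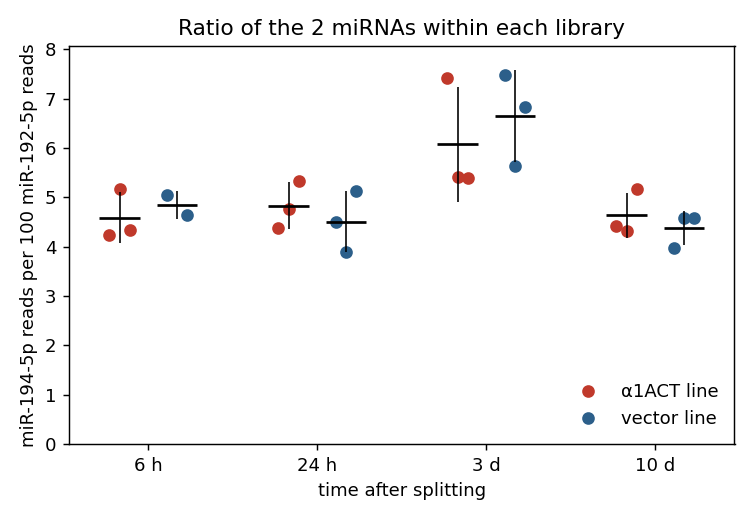
miR-194-5p reads per 100 miR-192-5p reads (y axis) by time after splitting (x axis), with 1 point per library, α1ACT in red and vector in blue; bars are the group mean and SD. The 6 libraries of 3 d lie at 5.39 to 7.47 and all others at 5.33 or below.

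Across libraries the CPM of the pair were loosely related. Pearson's r of the log2 CPM was 0.416 (permutation p = 0.0426) and Spearman's rho 0.475 (permutation p = 0.0234) over the 23 libraries, which share the time course and the line difference. Without the 2 libraries farthest from the median in miR-192-5p, vector 3 d replicates 1 and 3, r was 0.499. It was 0.488 over the 12 α1ACT libraries (permutation p = 0.106) and 0.131 over the 11 vector libraries (permutation p = 0.7), so it was not shown within either line, and with the group means removed it was -0.188. Among the 221 other tested entries with a mean of at least 10 CPM, miR-194-5p ranked 63 in likeness to miR-192-5p. The most like were miR-450a-5p (r = 0.856), miR-101a-3p (0.835), miR-3068-3p (0.831), miR-153-3p (0.818) and miR-450b-5p (0.813). With the group means removed these r were 0.0284, 0.1, 0.222, -0.333 and 0.213 in the same order, so little of the likeness was seen among libraries of the same group. The least like were miR-99b-3p (-0.9), miR-106b-3p (-0.882) and miR-30d-5p (-0.878). For miR-194-5p the most like were miR-22-3p (0.71), miR-1843a-5p (0.693), miR-344a-3p (0.688), miR-500-3p (0.651) and miR-101b-3p (0.63), with r of 0.413 to 0.647 once the group means were removed. The least like were miR-484 (-0.622), miR-93-3p (-0.616) and miR-195-3p (-0.598). None of the 5 most like entries is shared by the 2 members.

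The 3p strands were scarce and the tables differed on them. In the sRNAbench table miR-192-3p had 16 reads in the α1ACT line and 2 in the vector line, with 16 of 23 libraries at 0. These made 0.0113% of all miR-192 reads in the α1ACT line (95% Clopper-Pearson interval 0.00647% to 0.0184%) and 0.00171% in the vector line (0.000208% to 0.00619%), where intervals cover counting error only. The Chimira table gave 171 reads in the α1ACT line and 135 in the vector line, or 0.119% and 0.114%, so a difference between the lines is not shown by both tables. That table holds 1160 values of 1, while the sRNAbench table holds none and its smallest value above 0 is 2. A 0 there may thus be a single read, but for miR-192-3p the gap was larger in some libraries. Where the sRNAbench table had 0, α1ACT 6 h replicate 2 had 25 Chimira reads. Likewise α1ACT 24 h replicate 1 had 23 and vector 3 d replicate 2 had 22. The cause of this gap was not tested. For miR-194-3p the sRNAbench table had 4 reads in the α1ACT line and 4 in the vector line, and the Chimira counts were 21 and 12.

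In the Chimira table alone miR-192-3p had enough counts to test. At 10 d it had 11, 12 and 7 reads in the α1ACT line (2.08, 3.97 and 3.42 CPM), against 22, 25 and 12 reads at 6 h (9.21, 11.7 and 6.41 CPM). The log2 fold change was -1.6 (SE 0.474, edgeR quasi-likelihood, Benjamini-Hochberg adjusted p = 0.0178). In this comparison 23.3% of that table's 305 entries were called. With the Chimira columns as named, the vector value was -1.04 (edgeR Benjamini-Hochberg adjusted p = 0.995), and with the pair exchanged, so that it follows the sRNAbench names, it was -1.22 (edgeR Benjamini-Hochberg adjusted p = 0.0872). Neither was called, and the α1ACT call held under the exchange (-1.62, edgeR Benjamini-Hochberg adjusted p = 0.00619). With the columns as named, the time courses of miR-192-3p did not pass (edgeR quasi-likelihood F test, Benjamini-Hochberg adjusted p = 0.0549 in the α1ACT line and 0.355 in the vector line). In those tests 39.3% and 18.4% of the 305 entries were called. The ratio of miR-192-3p to miR-192-5p reads was at -1.51 on the log2 scale at 10 d relative to 6 h within lines (exact permutation test, two-sided, p = 0.015, adjusted p = 0.025 over 5 ratio tests) with the columns as named. With the pair exchanged it was at -1.7 (exact permutation p = 0.01 over 200 permutations). That test was added after the values had been seen, and the sRNAbench table, with most libraries at 0, cannot repeat it. The sRNAbench reads of miR-192-3p in the α1ACT line were 3, 0 and 2 at 6 h and 0, 2 and 3 at 10 d.

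The seed relative miR-215 has an entry in the Chimira table, with 2 to 46 reads per library and a mean of 10.1 CPM, rank 239 of 305. It averaged 9.95 ± 1.54 CPM in the α1ACT line (SD, n = 12) and 10.3 ± 3.59 CPM in the vector line (SD, n = 11). The log2 fold change was -0.07 as the mean of the 4 times (SE 0.136, edgeR quasi-likelihood, Benjamini-Hochberg adjusted p = 0.828, with 6.23% of that table's entries called), and -0.086 with the pair of vector columns exchanged (edgeR Benjamini-Hochberg adjusted p = 0.698).

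Other miRNAs of the settings in which this cluster is known were compared between the lines in the sRNAbench table, where, as above, 12.6% of all entries were called, 6.69% as higher and 5.95% as lower in the α1ACT line. The lists are small, so these counts are given as a description and nothing is read from them about a list as a whole. Of 7 tested entries of p53-linked miRNAs, 2 rose and 1 fell in the α1ACT line. The p53 targets miR-34c-5p (0.47) and miR-34a-5p (0.33) rose, and miR-143-3p (-0.76), abundant in mesenchymal cells, fell. The log2 fold changes of the other 4, miR-107-3p (-0.04), miR-103-3p (0.02), miR-16-5p (-0.10) and miR-16-3p (-0.03), did not pass, and the median of the 7 was -0.03. Of 4 tested entries of gut, liver and kidney epithelium, none rose and 1 fell, while the other 3 estimates were positive (median of the 4, 0.175). The one that fell was miR-203a-3p (-0.22), an epithelial miRNA at 369 CPM in the α1ACT line and 431 CPM in the vector line. Those 3, all of the epithelial miR-200 family, were at 10.8 CPM or below over the 23 libraries: miR-200b-3p (0.17), miR-141-3p (0.18) and miR-429 (0.50). In the sRNAbench table the hepatocyte miRNA miR-122 had no entry, nor had miR-802, miR-205 and miR-215. Of 13 tested neuroendocrine and neuronal entries 1 rose, the neural miR-9a-5p (0.70), and none fell. Levels within this list were far apart. The endocrine miR-375-3p stood at 140477 CPM in the α1ACT line and 153672 CPM in the vector line, while over the 23 libraries miR-7a-5p averaged 5.88 CPM, and the neuronal miR-124-3p 0.0476 CPM with 22 libraries at 0. Of 4 mesenchymal and endothelial entries 1 fell, miR-143-3p, whose list summed to 398 to 889 CPM per library in the α1ACT line and 502 to 1449 CPM in the vector line. The blood list had 1 tested entry, not called, and summed to at most 11.5 CPM in any α1ACT library and 8.53 CPM in any vector library. All libraries were labelled as PC12 cells, and whether any other cells contributed to the values of miR-192-5p and miR-194-5p was not tested.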

How the data were processed

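Small RNA libraries were made from a miRNA-enriched fraction with an Illumina small RNA protocol, per the labels' protocols. The authors deposited 2 tables of raw, unnormalized counts of reads by mature miRNA, and their names point to sRNAbench and Chimira. The edgeR package is named in the submitters' processing notes. For versions, aligner, miRBase release and genome build, no statement was found in the sources used here. Column names were read as vector for control and as α1ACT for WT. This is an assumption, based on the normal length of the construct's repeat. The 12 further columns of each table belong to no sample given and were not used. A blank-named entry with 0 counts was left out.

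Counts were fitted with edgeR 4.0.16 in R 4.3.3: filterByExpr (269 of 413 entries; 305 of 627 in the Chimira table), TMM scaling, 1 mean per group over 23 libraries and robust quasi-likelihood dispersions (biological coefficient of variation 16.1%). Adjusted p-values are Benjamini-Hochberg over all tested entries, called under 0.05. Ratios used log2 counts with 0.5 added and exact permutation within lines or times. Members and lists were chosen with earlier results of these data known. Likeness names the 5 highest and 3 lowest Pearson correlations of log2 CPM (prior count 2). Every tested entry of the p53-linked and epithelial lists is named, and from the other lists miR-9a-5p, miR-375-3p, miR-7a-5p, miR-124-3p and miR-143-3p were picked after their values were seen. Alternatives were the Chimira table, other scalings and filters, DESeq2 1.42.0, limma-voom 3.58.1, a replicate block and leaving out each library. Added after seeing the data were the steps between neighbouring times, the ratio tests at 3 d, the miR-192-3p ratio, and the exchange of the vector pair in the Chimira table. No duplicate library was found over 22 replicate pairs (chi-square per degree of freedom 21.4 to 214). Counts carry no molecular identifiers, so the Clopper-Pearson intervals cover counting error only. The steps were tested on simulated data: a first version, in which most entries changed, recovered them poorly for a cause that was not tested, and a version with fewer changed entries was kept. It called few of its smallest changes, which were still larger than the line differences of both members, so an uncalled difference of that size is not shown to be absent.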

Additional observations from a re-analysis of the deposited data

How the results depend on the processing

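The lower miR-192-5p at 3 d, its rise at 10 d against 3 d, its time courses and the ratio differences at 3 d kept their direction and call in every setting run. The higher miR-192-5p of the α1ACT line as the mean of the 4 times kept its direction. It lost its call in the Chimira table as named (0.16) and, in the sRNAbench table, with no low-count filter (0.16) or the vector pair exchanged (0.15) or left out (0.15). With each library left out it ranged over 0.15 to 0.20. It was larger, and called, under upper-quartile factors (0.25) and library totals (0.23). Its 10 d against 6 h value in the α1ACT line lost its call under upper-quartile factors (0.27) and without α1ACT 6 h or 10 d replicate 1 (range 0.29 to 0.34). In the vector line this value gained a call under upper-quartile factors (0.46), limma-voom (0.29), the replicate block (0.29) and without α1ACT 6 h replicate 2 or vector 3 d replicate 2 (range 0.23 to 0.31). The mean line difference of miR-194-5p gained a call under upper-quartile factors (0.25) and library totals (0.23), which shift the median of all entries by 0.0887 and 0.0684. Its 10 d against 6 h call in the α1ACT line was lost in the Chimira table (0.34), under upper-quartile factors (0.29), library totals (0.31), no filter (0.35), a mean CPM of at least 10 (0.32), and with the vector pair exchanged (0.34) or left out (0.29), with a range of 0.24 to 0.41 over left-out libraries. Its 10 d against 3 d value in the α1ACT line gained a call under upper-quartile factors (0.40) and without α1ACT 3 d replicate 1 (range 0.20 to 0.40). The cause of these changes was not tested.

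Only values that were never called changed sign, all of miR-194-5p or the ratio between the lines. For the α1ACT line against vector at 6 h the Chimira value was -0.0035, and at 3 d left-out libraries gave -0.026 to 0.18. For 3 d against 24 h in the α1ACT line the value was 0.041 at a mean CPM of at least 10, and -0.20 to 0.0058 over left-out libraries. In the vector line, 10 d against 6 h was -0.041 in the Chimira table and -0.0086 with the pair left out, 24 h against 6 h was -0.060 and -0.036 (left-out libraries -0.024 to 0.12), and 10 d against 3 d was -0.00034 in the Chimira table and -0.027 under library totals. Also there, 3 d against 24 h was 0.019 in the Chimira table, 0.0029 under DESeq2 size factors, 0.059 under library totals, 0.025 with no filter, 0.037 at a mean CPM of at least 10 and 0.015 in the Chimira table with the pair exchanged (left-out libraries -0.099 to 0.074). The ratio between the lines ranged over -0.048 to 0.015 with a library left out.

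Of all entries, the 34 calls between the lines became 18 with the pair exchanged in the sRNAbench table and 16 with it left out there. The Chimira table gave 19 as named and 34 with the pair exchanged. The 18 higher and 16 lower became 43 and 5 under upper-quartile factors and 36 and 5 under library totals. In the sRNAbench table the 32 calls of 10 d against 6 h in the vector line became 0 with the pair exchanged, 11 with it left out and 60 under upper-quartile factors. For this comparison the Chimira table gave 0 as named and 43 with the pair exchanged, so that it follows the sRNAbench names. The 99 calls of the vector time course became 46 with the pair exchanged in the sRNAbench table and 56 in the Chimira table as named. Calls at single times, 0, 1, 1 and 4, at 6 h, 24 h, 3 d and 10 d, ran up to 3, 3, 6 and 11 over the settings other than left-out libraries. Replicate numbers did not pair the libraries (correlation over 0.1 in 3 of 11 pairs, and 7 of 22 libraries correlated best with their own number), and beside the gain above, the replicate block changed no call of either member. For miR-192-3p the count depends on the table, with 18 reads in the sRNAbench and 306 in the Chimira table from the same libraries.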
